A study of Mus musculus with 6 samples.

Results

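Metallothioneins and the targets of the transcription factor NRF2 form much of the inducible defence of a cell against reactive oxygen species, electrophiles and free metal ions. The 10 genes described here are the metallothioneins Mt1 and Mt2, the NRF2 targets Hmox1, Nqo1, Gclc, Gclm, Gsr, Txnrd1 and Srxn1, and the selenoprotein gene Gpx3. They were taken by name from the 53084 genes of the deposited count table, and all 10 were found. The muscle came from 6 male C57BL/6 mice aged 6 weeks on standard chow, 3 of them wild type (Tarsl2+/+) and 3 lacking Tarsl2, a paralog of the cytoplasmic threonyl-tRNA synthetase gene (Tarsl2-/-). The deletion removes exon 3 in every tissue and was made in C57BL/6J zygotes with CRISPR/Cas9. Neither the number of founders, nor the kind of muscle, nor whether the 6 mice were littermates is given in the sources used here. The title of Tarsl2-/- mouse 589 begins with KOT1, where those of the other Tarsl2-/- mice begin with KO1, and the sources used here do not say what the difference means. Each mouse gave 1 library of poly(A)-selected RNA, and the comparison is Tarsl2-/- against Tarsl2+/+ muscle.

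In resting cells the adaptor KEAP1 holds NRF2, encoded by Nfe2l2, for ubiquitination with the CUL3 ligase. Oxidants and electrophiles modify KEAP1, and NRF2 then binds antioxidant response elements (AREs) as a dimer with a small MAF protein, where BACH1 competes with it. Metallothioneins are short cysteine-rich proteins that bind zinc and copper, and their genes respond to the zinc sensor MTF1 through metal response elements (MREs) and to glucocorticoids. In muscle, oxidants arise from contraction and mitochondrial respiration, and glutathione and thioredoxin are the main thiol systems that remove them.

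Promoter sequence is shown as a description only. The genes were chosen as metallothioneins and NRF2 targets, which respond through MREs and AREs, so finding these cores is not independent of the choice. RefSeq start sites (GRCm38.p6) were matched for Mt1, Mt2, Nqo1, Gclm, Txnrd1, Srxn1 and Gpx3, with 3 start sites for Txnrd1. Windows of 300 bases, from 250 before to 50 after the start, were searched on both strands for the MRE core (TGCGCNC or TGCACNC) and the ARE core (TGACNNNGC). Of all 32851 such windows, 25.7% held an MRE core and 12.4% an ARE core. The Mt1 window held 3 MRE cores and the Mt2 window 4, where 0.517% of all windows held 4 or more. Several MRE cores were not particular to the metallothioneins, as the Gclm window also held 3, and that of Srxn1 held 1. The part before the start site is printed for Mt1 (chr8:94178839-94179088) and Mt2 (chr8:94172368-94172617). Both are on the plus strand of chromosome 8, with MRE cores in capitals.
Mt1: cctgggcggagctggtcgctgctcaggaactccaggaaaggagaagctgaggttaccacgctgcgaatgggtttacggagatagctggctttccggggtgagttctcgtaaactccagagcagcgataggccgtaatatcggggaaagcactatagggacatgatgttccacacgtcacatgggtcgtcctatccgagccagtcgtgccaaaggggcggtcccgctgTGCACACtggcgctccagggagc
Mt2: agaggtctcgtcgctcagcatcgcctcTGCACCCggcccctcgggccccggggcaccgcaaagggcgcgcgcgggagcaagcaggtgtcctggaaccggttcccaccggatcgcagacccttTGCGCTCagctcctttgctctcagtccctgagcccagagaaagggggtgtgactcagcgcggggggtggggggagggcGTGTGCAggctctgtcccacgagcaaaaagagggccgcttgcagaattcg
GENCODE vM21 also annotates Mt1 transcripts that start further into the gene, and their upstream sequence was not searched.

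ARE cores were found before the start site of Mt2, of Gclm and of 1 of the 3 Txnrd1 starts, and after the start site of Srxn1. The first 3 are printed to show the letters around the core, which is in capitals and reads on the gene's own strand in Mt2 and on the opposite strand in the other two. They begin 79, 134 and 92 bases before the start sites, at chr8:94172529-94172557, chr3:122245413-122245441 and chr10:82859104-82859132, all on the plus strand.
Mt2: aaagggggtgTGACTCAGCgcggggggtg
Gclm: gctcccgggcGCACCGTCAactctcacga
Txnrd1: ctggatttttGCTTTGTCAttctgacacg
In Gclm an MRE core overlaps the ARE core. The windows of Nqo1 and Gpx3 held neither core, which says only that these letters are not within them.

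The libraries held between 16176591 and 20123767 counts. Levels are given as CPM, counts scaled to a common library size with TMM (the trimmed mean of log ratios between libraries), on which 3 counts correspond to between 0.146 and 0.187. The targeted gene, Tarsl2, kept 30 to 40 counts per library after the deletion, against 456 to 605 counts in wild-type libraries. The 12 muscle fibre markers summed to at least 50580 CPM in every library (4 of the 12 rose in Tarsl2-/- muscle by edgeR, where 0.896% of all genes tested rose). Of 10 retinal markers, examined because the labels mention retina, 7 had at most 3 counts in every library, and Rom1 had 257 to 370.

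None of the members passed the test for a difference between the genotypes. With the quasi-likelihood test of edgeR and p-values adjusted over 15075 genes after Benjamini and Hochberg, 0 of the 9 members tested had an adjusted p under 0.05, where 2.27% of all genes tested did. DESeq2 (4.96% of all genes) and limma-voom also called 0 members, as did edgeR without a filter on low counts (5.62% of all genes, 2.39% higher and 3.23% lower in Tarsl2-/- muscle). At an unadjusted p under 0.05 there was 1 of 9, Txnrd1, where 19.8% of all genes tested passed. The genotypes did not overlap in 2 of 9, Txnrd1 and Gclm, where 24.6% of all genes tested did not overlap. The remaining member, Mt2, had too few counts to pass the filter on low counts of the main test. Across the 9, the 95% intervals of the fold change (Tarsl2-/- over Tarsl2+/+) reached down to 0.767 for Gclm and up to 1.54 for Gclc, so that a change of 2-fold or more lay outside the interval of each.

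**Figure D1:**
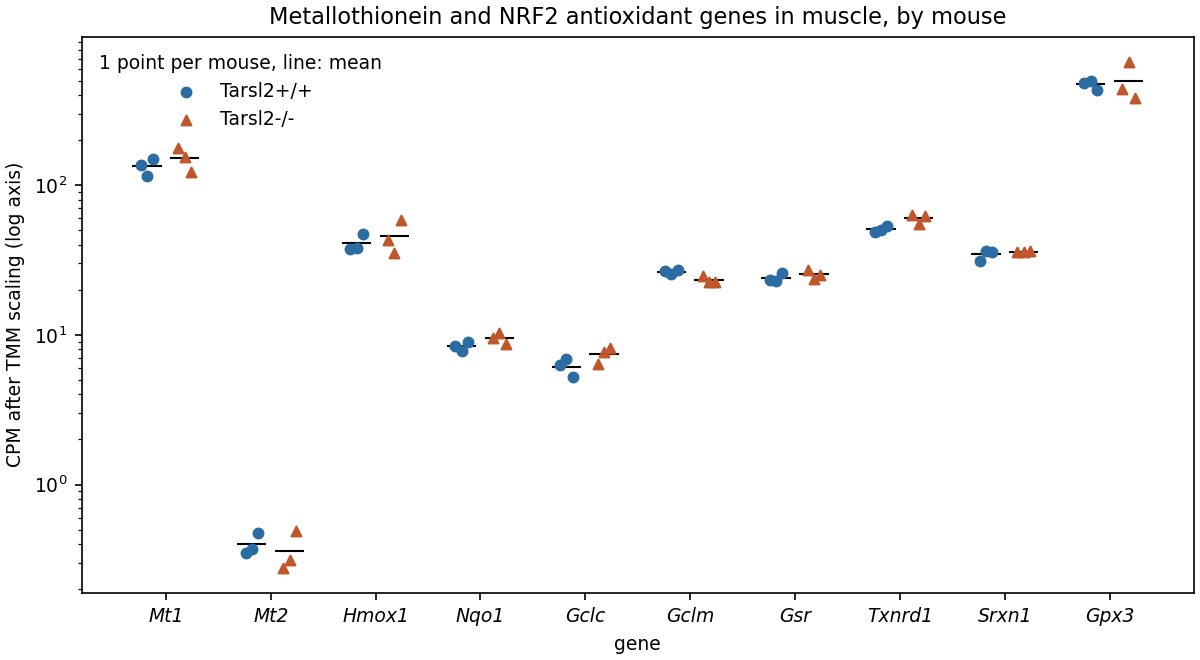
CPM after TMM scaling (log axis) of the 10 genes in each mouse, circles for Tarsl2+/+ and triangles for Tarsl2-/-, with the mean of 3 mice as a line. The genotypes overlap in all genes but Gclm and Txnrd1, and Mt2 sits below 0.5 CPM in every mouse.

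The metallothionein genes lie side by side on chromosome 8 (mm10), Mt2 from 94172664 to 94173568 and Mt1 from 94179082 to 94180327, with 5513 bases between them. Mt1 was at 137, 115 and 149 CPM in the Tarsl2+/+ mice 583, 584 and 595, and at 177, 153 and 123 CPM in the Tarsl2-/- mice 588, 589 and 591. The highest mouse was a Tarsl2-/- mouse and the lowest a Tarsl2+/+ mouse, but the genotypes overlapped. The means were 134 ± 17.2 and 151 ± 26.9 CPM (SD, n = 3), and the log2 fold change was 0.18 (standard error 0.14, 95% interval -0.12 to 0.47, adjusted p = 0.513 by edgeR). That value was 0.05 without mouse 588 and 0.30 without mouse 591.

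Mt2 was close to absent from the table. Its counts were 6, 7 and 9 in Tarsl2+/+ mice 583, 584 and 595, and 5, 5 and 10 in Tarsl2-/- mice 588, 589 and 591, or 0.398 ± 0.0650 against 0.359 ± 0.111 CPM (SD, n = 3). The Tarsl2-/- mice spanned the range of the Tarsl2+/+ mice (exact two-sided permutation test on log2 CPM, p = 0.6, where 3 mice against 3 allow no p below 0.1). Per kilobase of exon, with all annotated exons of each gene joined, Mt1 was between 119.7 and 299.6 times the level of Mt2 in the 6 mice. The ratio of Mt1 to Mt2 did not separate the genotypes, with a difference in log2 ratio of 0.35 (exact two-sided permutation test, p = 0.4), which was 0.07 without mouse 588 and 0.73 without mouse 591.

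The annotation limits what the Mt2 value means. Of its 588 exon bases, 432 (73.5%) also lie in exons of Gm45774, an antisense gene annotated on the opposite strand, which leaves 156 bases to Mt2 alone. Gm45774 itself had between 2 and 6 counts per library. The methods name a stranded library kit, but the use of strand in the counting is not given in the sources used here. Counted without it, the reads of a gene and its antisense partner cannot be told apart. Mt1 shares no exon base with another gene, and although its coding sequence is identical to that of Mt2 at 148 of 186 bases (79.6%), the longest run shared by their main transcripts is 20 bases. The part of the overlap in the low Mt2 count was not tested.

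Hmox1 and Nqo1 are the NRF2 targets most used as readouts of its activity. Hmox1 encodes heme oxygenase 1, which degrades heme to biliverdin, carbon monoxide and iron. It was at 37.8, 38.4 and 46.9 CPM in the Tarsl2+/+ mice 583, 584 and 595, and at 43.0, 35.1 and 58.9 CPM in the Tarsl2-/- mice 588, 589 and 591. The Tarsl2-/- group held both the lowest and the highest mouse, and the log2 fold change, 0.16 with a standard error of 0.16 (adjusted p = 0.644 by edgeR), changed sign to -0.07 without mouse 591. Nqo1 encodes a quinone reductase that uses NADH or NADPH. It was at 8.48, 7.86 and 9.03 CPM in Tarsl2+/+ and 9.48, 10.3 and 8.75 CPM in Tarsl2-/- mice, in the same order. The genotypes overlapped through Tarsl2+/+ mouse 595 and Tarsl2-/- mouse 591, and the log2 fold change was 0.17 with a standard error of 0.13 (adjusted p = 0.509 by edgeR).

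Macrophages and red cells are other places in muscle where heme oxygenase 1 or heme is found. Their markers had negative log2 fold changes, with calls among the macrophage markers only. All 10 macrophage markers had lower means in Tarsl2-/- muscle and 6 of them passed the test (1.37% of all genes tested were lower). Their summed level was 1578 to 1791 CPM in Tarsl2+/+ and 914 to 1166 CPM in Tarsl2-/- muscle. The 6 erythrocyte genes summed to 7216, 4748 and 10390 CPM in Tarsl2+/+ mice 583, 584 and 595, and to 4166 to 4536 CPM in Tarsl2-/- muscle. Mouse 584 was thus close to the Tarsl2-/- mice. There was no call by edgeR, although 5 of the 6 had an unadjusted p under 0.05. Markers of other cells also had negative log2 fold changes, in 7 of 7 endothelial genes (1 passed, Cdh5), 6 of 6 fibroblast genes and 4 of 4 tested neutrophil genes (none of these 10 passed, 4 at an unadjusted p under 0.05). The neutrophil genes listed summed to 64.25, 2.019 and 14.02 CPM in Tarsl2+/+ mice 583, 584 and 595. In Tarsl2-/- mice 588, 589 and 591 they summed to 2.732, 2.058 and 4.131 CPM. Mouse 584 was thus below every Tarsl2-/- mouse, mouse 583 stood far above the rest, and the genotypes overlapped in every neutrophil gene tested. In bulk RNA, fewer cells of a type and less RNA per cell cannot be told apart, and the part of these cells in the level of Hmox1 was not tested.

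Glutathione is made in 2 steps, of which glutamate-cysteine ligase catalyses the first and limiting one. Its catalytic subunit is encoded by Gclc and its modifier subunit, which raises the affinity for glutamate, by Gclm. Gclc was at 6.26, 6.85 and 5.25 CPM in the Tarsl2+/+ mice 583, 584 and 595, and at 6.41, 7.67 and 8.16 CPM in the Tarsl2-/- mice 588, 589 and 591. Tarsl2-/- mice 589 and 591 were above every Tarsl2+/+ mouse and mouse 588 was not, and the log2 fold change of 0.28 had a 95% interval from -0.07 to 0.63 (adjusted p = 0.361 by edgeR).

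Gclm, the only member tested with a negative fold change, was at 26.9, 25.7 and 27.0 CPM in Tarsl2+/+ and 24.9, 22.4 and 22.7 CPM in Tarsl2-/- mice, in the same order. Every Tarsl2-/- mouse was below every Tarsl2+/+ mouse, by a small margin at mouse 588. The log2 fold change was -0.18 (standard error 0.09, 95% interval -0.38 to 0.01, adjusted p = 0.285 by edgeR). Of its exon bases, 4.71% are shared with the opposite-strand gene Gm17494. The ratio of Gclc to Gclm, which does not depend on the scaling of the libraries, was 0.233, 0.267 and 0.195 in Tarsl2+/+ and 0.257, 0.343 and 0.361 in Tarsl2-/- mice. Mouse 588 lay below the highest Tarsl2+/+ mouse, 584, so that the ratios overlapped (difference in log2 ratio 0.46, exact two-sided permutation test, p = 0.2).

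Glutathione reductase, encoded by Gsr, returns oxidised glutathione to its reduced form with NADPH. Gsr was at 23.2, 23.1 and 25.9 CPM in the Tarsl2+/+ mice 583, 584 and 595, and at 27.2, 23.6 and 25.3 CPM in the Tarsl2-/- mice 588, 589 and 591. The genotypes overlapped, and the spread over the 6 mice was small, with a coefficient of variation of 6.75%. The log2 fold change was 0.08 (standard error 0.10, adjusted p = 0.716 by edgeR).

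On the thioredoxin side, Txnrd1 encodes the cytosolic thioredoxin reductase, a selenoprotein, and Srxn1 encodes sulfiredoxin, which repairs hyperoxidised peroxiredoxins. Txnrd1 was at 48.4, 50.3 and 53.2 CPM in the Tarsl2+/+ mice 583, 584 and 595, and at 63.2, 55.5 and 62.2 CPM in the Tarsl2-/- mice 588, 589 and 591. The genotypes did not overlap, and mouse 589 was the lowest of the Tarsl2-/- mice. The log2 fold change was 0.25 (standard error 0.09, 95% interval 0.06 to 0.44), and with an unadjusted p = 0.0144 the adjusted p was 0.143 by edgeR, not past the threshold over all genes. The adjusted p of Txnrd1 lay between 0.139 and 0.382 over 12 alternative analyses.

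Srxn1 had the smallest spread among the members relative to its level. It was at 31.0, 36.6 and 35.8 CPM in Tarsl2+/+ and at 35.9, 36.0 and 36.1 CPM in Tarsl2-/- mice, in the same order. Mouse 583 stood below the other 5, which lay between 35.8 and 36.6 CPM. The log2 fold change, 0.06 with a standard error of 0.09 (adjusted p = 0.759 by edgeR), was -0.01 without mouse 583.

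Gpx3 encodes the secreted glutathione peroxidase of plasma and extracellular fluid, also a selenoprotein. It was at 485, 499 and 432 CPM in the Tarsl2+/+ mice 583, 584 and 595, and at 437, 666 and 383 CPM in the Tarsl2-/- mice 588, 589 and 591. Mouse 589 stood above the other 5, and the Tarsl2-/- group also held the lowest mouse. The log2 fold change of 0.07 (standard error 0.17, 95% interval -0.31 to 0.45, adjusted p = 0.869 by edgeR) became -0.20 without mouse 589 (adjusted p = 0.466).

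Mouse 589, whose title differs as given above, had the highest level of 6 of 7 adipocyte markers. Their summed level was 7088 CPM in mouse 589, against 2740 to 4162 CPM in the Tarsl2+/+ mice and 3203 and 3586 CPM in the other Tarsl2-/- mice. Adipoq, the adiponectin gene, was at 313 CPM in mouse 589 and 102 to 195 CPM in the other 5. Leptin (Lep) was the exception, at 10.8 CPM in mouse 589 against 23.5 CPM in Tarsl2+/+ mouse 584. Some antioxidant genes outside the members, chosen after their values were seen, were also highest there. Cat (catalase) was at 195 CPM against 105 to 123 CPM in the other 5. Mgst1, a microsomal glutathione transferase, was at 207 CPM against 115 to 155 CPM. Other genes of this defence were lowest in mouse 589. The member Hmox1 was at 35.1 CPM against 37.8 to 58.9 CPM in the other 5, and Nfe2l2 at 64.7 CPM against 69.5 to 91.7 CPM. None of these genes separated the genotypes, and the part of fat tissue in the Gpx3 level was not tested.

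**Figure D2:**
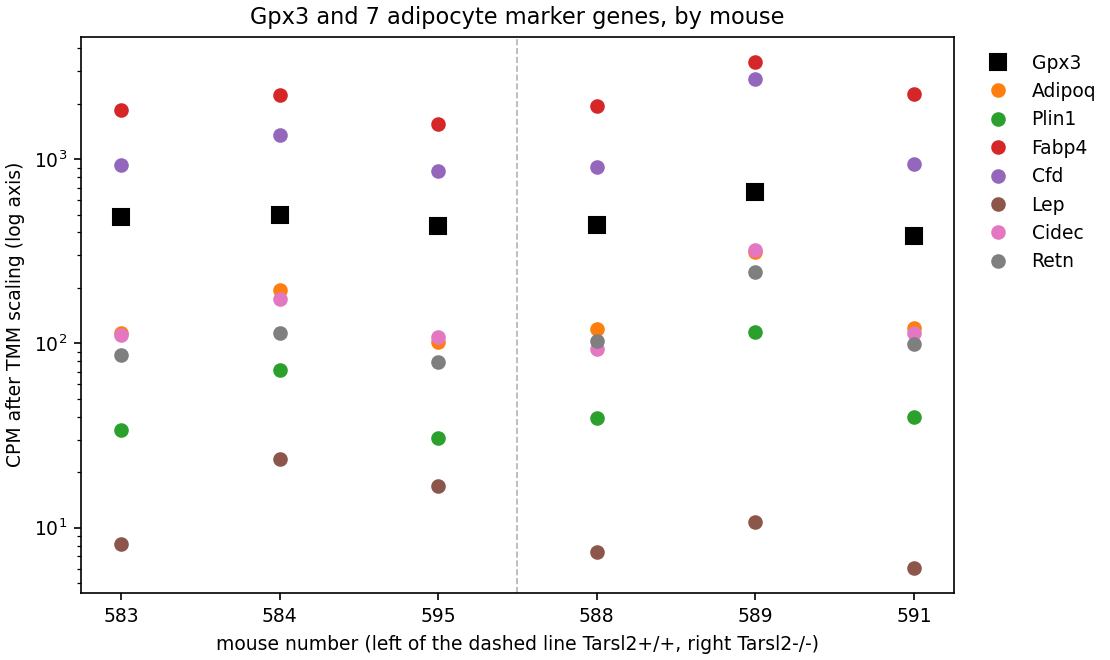
CPM after TMM scaling (log axis) of Gpx3 (black squares) and 7 adipocyte markers (coloured circles) in each mouse, Tarsl2+/+ to the left of the dashed line and Tarsl2-/- to the right. Gpx3 and all markers except Lep are highest in Tarsl2-/- mouse 589, where Gpx3 is at 666 CPM.

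Compared per kilobase of exon over the 6 mice, the order of the levels was Gpx3 at 267 ± 54.2 CPM per kilobase (SD, n = 6), Mt1 at 114 ± 17.9, Hmox1 at 24.7 ± 4.97, Srxn1 at 12.5 ± 0.734, Gsr at 8.97 ± 0.605, Txnrd1 at 7.83 ± 0.863, Nqo1 at 5.78 ± 0.541, Gclm at 3.96 ± 0.320, Gclc at 1.80 ± 0.278 and Mt2 at 0.644 ± 0.144. Neighbours in this order did not overlap over the 6 mice, except Gsr and Txnrd1. The lengths join the exons of all annotated transcripts, and the 1246 exon bases of Mt1 fill its whole span on the chromosome. A shorter length would raise the value of Mt1, so the order holds for these lengths only. Mt2 shares 73.5% of its exon bases with Gm45774, as given above. Members differed in how much they varied: the highest mouse was 1.18 times the lowest for Srxn1 and Gsr, and 1.74 times for Gpx3. The mice at the extremes were not the same from gene to gene. Mouse 588 was highest for Mt1, Gsr and Txnrd1, mouse 589 for Nqo1 and Gpx3, and mouse 591 for Hmox1, Gclc and Mt2.

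Of 12448 genes whose log2 CPM averaged 1 or more, those whose log2 CPM followed the mean of Mt1 and Mt2 most closely over the 6 libraries were Ramp1, A430046D13Rik, Slc41a2, Uqcr10 and Rack1, with Pearson's r between 0.982 and 0.990. They were picked for their likeness, so no test is given, and part of the pattern comes from the few counts of Mt2. Between Tarsl2-/- mice 588 and 591, Mt1 and Mt2 differed in opposite directions. Mt1 was at 177 CPM in mouse 588 and 123 CPM in mouse 591, where Mt2 had 5 and 10 counts. Mt2 had 5 counts in mouse 589 as well, and counts this low are too few to show a course. The mean of Mt1 and Mt2 stands for neither gene alone. The log2 fold changes of the 5 genes lay between -0.006 and 0.017, against 0.18 for Mt1.

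The regulators of these genes were examined as a list of 10, of which 2 rose in Tarsl2-/- muscle and 0 fell by edgeR's quasi-likelihood test, where 0.896% of all genes tested rose and 1.37% fell. An unadjusted p under 0.05 was found for 4 of the 10, where 19.8% of all genes tested had one. Keap1, the adaptor that presents NRF2 for degradation, was at 68.3, 76.9 and 68.2 CPM in the Tarsl2+/+ mice 583, 584 and 595, and at 92.2, 101 and 98.6 CPM in the Tarsl2-/- mice 588, 589 and 591. The genotypes did not overlap, and the log2 fold change was 0.45 with a standard error of 0.09 (adjusted p = 0.0238 by edgeR). Maff, a small MAF protein that can pair with NRF2, was at 7.60, 6.91 and 8.29 CPM in Tarsl2+/+ and 11.3, 13.7 and 13.6 CPM in Tarsl2-/- mice, in the same order. Its log2 fold change was 0.76 (standard error 0.13, adjusted p = 0.0165), the largest in the list.

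Both calls were lost in some of the fits that left 1 mouse out, although their fold changes were kept. Such fits hold fewer mice, and over all genes they called between 81 and 625, against 342 in the main fit. The part of single mice and that of the smaller groups in these losses were not tested. The log2 fold change of Keap1 stayed between 0.42 and 0.51 over the alternatives, but its adjusted p was 0.124 without Tarsl2+/+ mouse 583, 0.0956 without 595, 0.0858 without Tarsl2-/- mouse 589 and 0.0853 without 591. That of Maff stayed between 0.70 and 0.85, with an adjusted p of 0.0718 without Tarsl2+/+ mouse 583, 0.0597 without Tarsl2-/- mouse 589 and 0.0635 without 591. Of the exon bases of Keap1, 10.9% are shared with the antisense gene Gm16754, which had at most 3 counts in any library.

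Of the other regulators, named here for their roles after their values were seen, Nfe2l2 itself was at 81.4 ± 10.2 CPM in Tarsl2+/+ and 71.3 ± 7.62 CPM in Tarsl2-/- muscle (SD, n = 3), and the genotypes overlapped (log2 fold change -0.19, adjusted p = 0.371 by edgeR). Its relative Nfe2l1 was at 185 ± 17.1 and 231 ± 12.7 CPM (SD, n = 3), without overlap (log2 fold change 0.32, adjusted p = 0.1005). Mtf1, the zinc sensor, was at 8.80 ± 0.480 and 11.4 ± 1.36 CPM (SD, n = 3), without overlap (log2 fold change 0.37, adjusted p = 0.139). None of the 3 passed the threshold. The genotypes did not overlap in 4 of the 10 regulators, where 24.6% of all genes tested did not overlap.

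**Figure D3:**
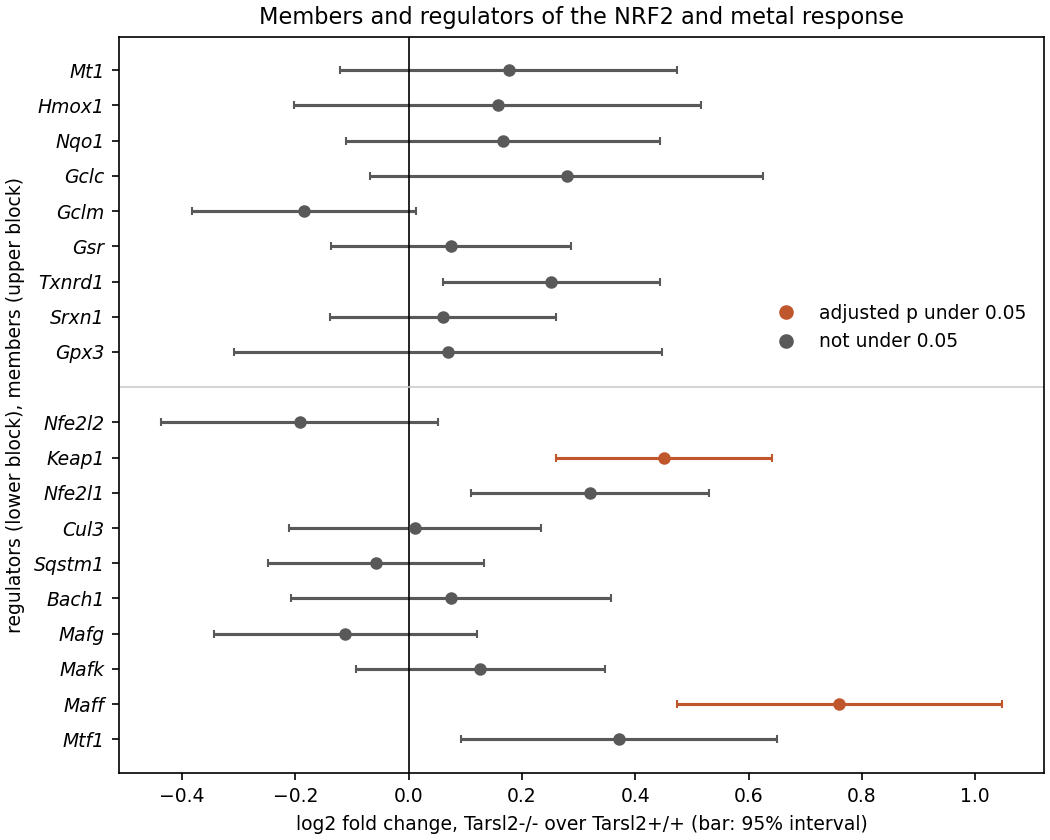
Log2 fold change (Tarsl2-/- over Tarsl2+/+) of the 9 members tested (upper block) and of 10 regulators (lower block), with 95% intervals as bars, coloured where the adjusted p was under 0.05. Only Keap1 at 0.45 and Maff at 0.76 are coloured, and 8 of the 9 member intervals include 0, Txnrd1 being the other.

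Around the members, 8 lists of related genes held 130 genes, of which 123 were tested. By edgeR 5 of them rose in Tarsl2-/- muscle and 0 fell, where 0.896% of all genes tested rose and 1.37% fell, the 5 being Keap1, Maff and 3 glucocorticoid-induced genes. An unadjusted p under 0.05 was found for 26 of the 123, where 19.8% of all genes tested had one, and that share also applies to the counts given for each list. DESeq2 called 11, 8 higher and 3 lower (2.14% and 2.82% of all genes by DESeq2), and limma-voom 4. The median log2 fold change was 0.00525 over the 123, 0.158 over the 9 members and 0.00253 over all genes tested.

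Of 23 tested genes of glutathione synthesis, peroxidases and transferases, 0 passed by edgeR and 5 had an unadjusted p under 0.05, with a median log2 fold change of 0.0256. The smallest p-values were those of Gstm5, a glutathione transferase (log2 fold change 0.31, adjusted p = 0.0618), and Mgst3, a microsomal one (-0.39, adjusted p = 0.106). Of 18 thioredoxin, glutaredoxin and peroxiredoxin genes, 0 passed and 3 had an unadjusted p under 0.05, with a median of -0.0251. The peroxiredoxin genes Prdx1 (-0.31, adjusted p = 0.166) and Prdx4 (-0.30, adjusted p = 0.178) led that list. Of 22 other NRF2 targets, for NADPH supply, detoxification and iron storage, 0 passed and 2 had an unadjusted p under 0.05. There 15 of 22 had a negative log2 fold change, with a median of -0.143, and the smallest p-values were those of Osgin1 (-0.46, adjusted p = 0.110) and Nqo2 (-0.22, adjusted p = 0.212).

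Of the 5 superoxide dismutase and catalase genes, 0 passed and 1 had an unadjusted p under 0.05. That was Sod2, the mitochondrial dismutase (log2 fold change 0.37, adjusted p = 0.112), and Cat was next (0.20, adjusted p = 0.604). Of 19 tested genes of metallothionein and of zinc or copper transport, 0 passed and 3 had an unadjusted p under 0.05, with a median of -0.0298. Mt3, the metallothionein best known from brain, was at 11.8 ± 2.12 CPM in Tarsl2+/+ and 8.21 ± 0.672 CPM in Tarsl2-/- muscle (SD, n = 3; log2 fold change -0.52, adjusted p = 0.0915), followed by the zinc importer gene Slc39a10 (-0.42, adjusted p = 0.105). Of 14 selenoprotein genes, 0 passed and 2 had an unadjusted p under 0.05. Selenop, the plasma carrier of selenium, was at 1254 ± 129 and 923 ± 64.8 CPM (SD, n = 3; -0.44, adjusted p = 0.0578), and Selenom was next (-0.34, adjusted p = 0.0660). In Mt3, Slc39a10, Selenop and Selenom, none of which passed, every Tarsl2-/- mouse was below every Tarsl2+/+ mouse. The genotypes did not overlap in 4 of the 19 genes and in 4 of the 14, where 24.6% of all genes tested did not overlap.

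Since metallothioneins also respond to glucocorticoids, 12 genes induced by these hormones were examined. By edgeR 3 rose and 0 fell, where 0.896% of all genes tested rose and 1.37% fell, and the median was 0.0748. An unadjusted p under 0.05 was found for 6 of the 12, and 6 of the 12 log2 fold changes were positive and 6 negative. The 3 that rose were the clock gene Per1 (log2 fold change 0.69, adjusted p = 0.0174) and the transcription factor genes Klf15 (0.74, adjusted p = 0.0174) and Klf9 (0.54, adjusted p = 0.0468). Fkbp5 and Tsc22d3, used as readouts of the receptor and named for that after their values were seen, differed by -0.06 and -0.19 in log2 fold change, with adjusted p = 0.827 and 0.346 by edgeR. Each call was lost in some of the fits that left 1 mouse out, which hold fewer mice. That of Klf9 also depended on the method, with an adjusted p of 0.0513 by limma-voom and 0.0573 by edgeR after upper quartile scaling. Per1 had an adjusted p of 0.0605 without Tarsl2-/- mouse 589 and 0.0563 without Tarsl2+/+ mouse 595. Klf15 had 0.0609 without 589, 0.0657 without 591 and 0.0721 without 595. Klf9 had an adjusted p of 0.0687 without 588, 0.114 without 591, 0.143 without 583 and 0.164 without 595.

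**Figure D4:**
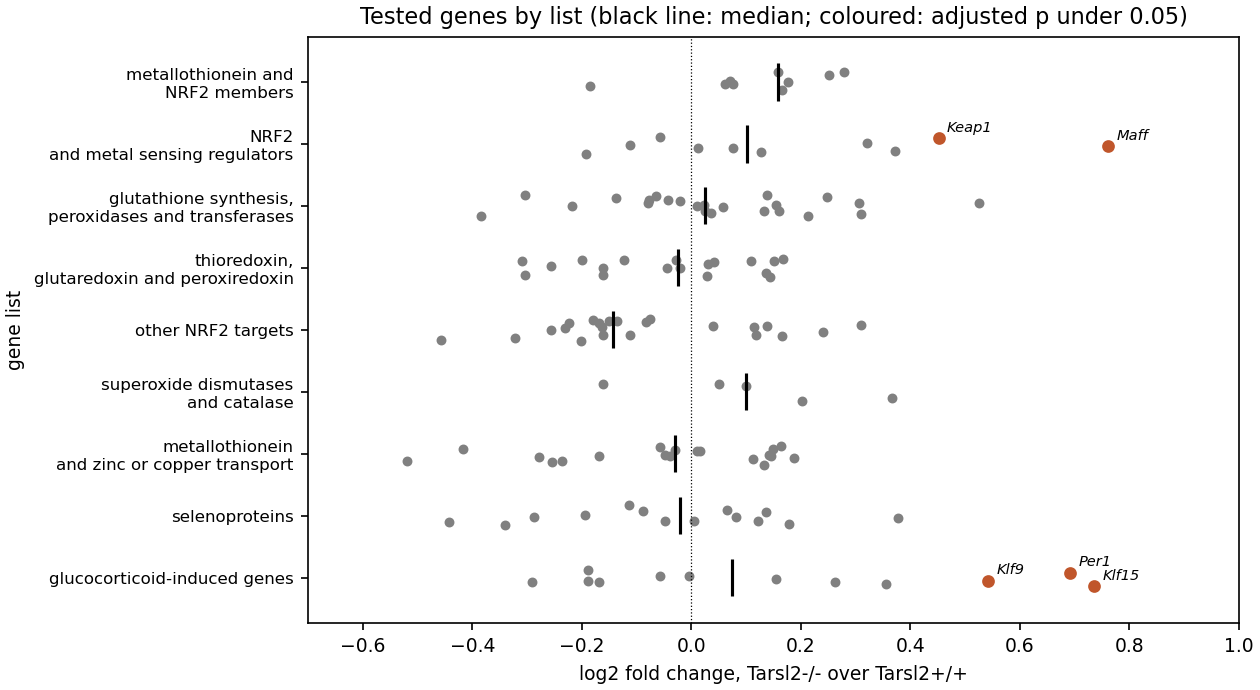
Log2 fold change (Tarsl2-/- over Tarsl2+/+) of each tested gene in the 9 members and 8 lists of related genes, 1 point per gene, with the list's median as a black line and genes with an adjusted p under 0.05 coloured. The coloured genes are Keap1, Maff, Klf9, Per1 and Klf15, all to the right of 0.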

How the data were processed

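The authors sequenced muscle RNA of 3 Tarsl2+/+ and 3 Tarsl2-/- mice (16176591 to 20123767 counts per library) and deposited a table of raw counts per gene. Per the methods the reads were mapped with HISAT2 to mm10, whereas the submitters' processing notes name Bowtie 0.12.2 and mm8. Coordinates in the table were those of GENCODE vM21 (GRCm38) for the members. The counting tool and its use of strand are not given in the sources used here. Genotypes were taken from the sample titles.

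The function filterByExpr with a minimum count of 10 and a minimum total of 15 left 15075 of 53084 genes. Genotype was tested by quasi-likelihood (glmQLFit and glmQLFTest) in edgeR 4.0.16 under R 4.3.3 after TMM scaling, with Benjamini-Hochberg adjustment over all genes tested and a threshold of 0.05. Standard errors were derived from the F statistic, and 95% intervals used the t distribution that gives the test's p. Exact permutation tests used SciPy 1.17.1. Log2 CPM used a prior count of 2. The procedure was tested on simulated data, where the share of false calls lay above the one the threshold aims at, so that calls just past it are the least firm. Floors of 3 counts cover counting error only.

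The alternatives were DESeq2 1.42.0, limma-voom (limma 3.58.1), RLE and upper quartile scaling, a filter of 1 count in at least 1 library (called no filter), a filter of 10 counts across every library, and each mouse left out. Members and lists were chosen with earlier results of these data known, the lists from general knowledge. The genes named were the members, Tarsl2 and every list gene past the threshold. Where fewer than 2 passed, the genes with the smallest p up to 2 were named. The 5 genes most like the mean of Mt1 and Mt2 were also named. Nfe2l2, Nfe2l1, Mtf1, Fkbp5, Tsc22d3, Mgst1, Adipoq, Lep, Cdh5 and Rom1 fell outside this rule and were chosen after their values were seen.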

Additional observations from a re-analysis of the deposited data

How the results depend on the processing

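The number of members past the threshold was 0 under all 12 alternatives, and the unfiltered fit, which tested all 10, also called 0. Of the members' fold changes, 3 changed sign when 1 mouse was left out. Leaving out each mouse gave -0.0732 (without Tarsl2-/- mouse 591) to 0.316 for Hmox1, -0.0124 (without Tarsl2+/+ mouse 583) to 0.108 for Srxn1 and -0.2004 (without Tarsl2-/- mouse 589) to 0.222 for Gpx3. The other 6 tested members and both ratios kept their sign under every alternative run for them. Over the related lists, 11 genes passed with DESeq2 and 12 without the filter, against 5, and from 1 (without Tarsl2-/- mouse 589 or 591 or Tarsl2+/+ mouse 595) to 9 (without Tarsl2+/+ mouse 584) when each mouse was left out, with 2 without Tarsl2+/+ mouse 583. Over all genes, 719 passed with DESeq2 and 1437 without the filter, against 342, and from 81 (without Tarsl2+/+ mouse 583) to 625 (without Tarsl2+/+ mouse 584) when each mouse was left out, with 96 without 595, 126 without 589, 142 without 591 and 187 without 588. The cause was not tested. No paired analysis was run, because the sources used here give no litter or other pairing of the mice. With 3 mice per genotype, the intervals of the members' fold changes limit what could be seen, and Mt2 was tested by edgeR without the filter alone.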
